A study of Mus musculus with 8 samples.

Results

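Troponins and tropomyosins, the regulatory proteins of the thin filament of striated muscle, were examined in mice injected with sonicated *Porphyromonas gingivalis*. The members were chosen by name, as every probe of the array that is not a control spot and carries the gene name *Tnnt1*, *Tnnt2*, *Tnnt3*, *Tnni1*, *Tnni2*, *Tnnc1*, *Tnnc2*, *Tpm1*, *Tpm2* or *Tpm3*. These 10 genes had 24 probes among the 56605 probes of the array, and 22 of the 24 were bright enough to be tested, beside 33819 probes in all. RNA labelled as brown adipose tissue (BAT) came from 12-week-old male C57BL/6J mice of 2 groups, with 1 Agilent one-color array per mouse. The 4 Co mice had received an intravenous injection of saline, and the 4 Pg mice sonicated *P. gingivalis* in 100 μL of saline. The labels print the dose as 108 CFU, where the methods write the last digit as an exponent. The tissue was collected 18 h after the injection in both groups, and no allele or other agent is named for either group. The bacteria were broken by sonication and given once, so the Pg group is a model of an acute exposure to bacterial components and not of an infection. All 8 arrays lay on 1 slide, whose first row held Co and whose second row held Pg, so that row and group cannot be told apart.

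Troponin sits on actin as a complex of a tropomyosin-binding subunit (troponin T), an inhibitory subunit (troponin I) and a calcium-binding subunit (troponin C). At rest tropomyosin, a coiled coil that runs along the actin filament, keeps myosin from its binding sites, and calcium bound to troponin C moves it aside. Slow and fast skeletal fibres build the complex from different genes, so these transcripts are widely used to tell fibre types apart, while tropomyosin genes also give shorter cytoskeletal isoforms in cells that are not muscle. Brown adipocytes share a precursor with skeletal muscle but do not build sarcomeres.

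The tissue label was first set against marker genes. All 10 skeletal muscle markers were well above background on all 8 arrays, and the log2 of their summed signal ranged from 20.76 to 20.82 in Co mice and from 20.70 to 20.76 in Pg mice. Of 10 brown adipocyte markers, 7 were well above background on all 8 arrays and were tested, and 3, *Ucp1*, *Elovl3* and *Slc27a2*, were above background on no array. *Ucp1* encodes the uncoupling protein that defines the brown adipocyte. By quantitative PCR the authors did measure *Ucp1* and *Cidea* in BAT, and reported both as lower in Pg mice. The 6 markers of adipocytes in general were all above background on the 8 arrays. The arrays therefore carry a strong signal of skeletal muscle genes in both groups, and their part in the results below was not tested. In bulk tissue, fewer cells of a type and less RNA per cell cannot be told apart. Each Co array had 34760 to 35831 probes above background, and each Pg array 31132 to 34063.

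What each array value stands for is a 60-base probe, and for tropomyosins the probe decides which isoforms are read, since an exon shared by several is read from all of them. Shown here are probes of the 3 slow troponins, of *Tnnt3* and of tropomyosins (those designed on Tpm2.2 and Tpm3.1 are given by position where their values are described), read from the scanner output and written 5′ to 3′ along the transcript, with positions on mm9 as the array design gives them. Capitals mark the 13 bases that the pair of *Tnnt3* probes have in common.
Tnnt1 A_51_P362627 at chr7:4460086-4460145, minus strand: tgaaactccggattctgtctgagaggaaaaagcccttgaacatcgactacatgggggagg
Tnni1 A_52_P657360 at chr1:137705328-137706203, plus strand: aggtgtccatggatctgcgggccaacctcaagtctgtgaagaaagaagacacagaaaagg
Tnnc1 A_51_P461894 at chr14:32023360-32023776, plus strand: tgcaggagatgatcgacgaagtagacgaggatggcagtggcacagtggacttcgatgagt
Tnnt3 A_52_P622418 at chr7:149698254-149698479, plus strand: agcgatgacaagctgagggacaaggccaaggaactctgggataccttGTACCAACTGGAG
Tnnt3 A_55_P2088375 at chr7:149698467-149698526, plus strand: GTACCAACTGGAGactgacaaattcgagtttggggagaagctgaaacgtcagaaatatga
Tpm1.1 A_66_P105457 at chr9:66878844-66878903, minus strand: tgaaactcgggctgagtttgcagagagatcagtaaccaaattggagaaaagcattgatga
Tpm1.5 A_55_P2078680 at chr9:66880274-66880333, minus strand: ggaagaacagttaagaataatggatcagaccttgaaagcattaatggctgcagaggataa
Tpm2.3 A_55_P2121408 at chr4:43532262-43532321, minus strand: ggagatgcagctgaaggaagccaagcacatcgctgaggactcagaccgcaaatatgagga
Tpm3.12 A_55_P2090205 at chr3:89892985-89893044, plus strand: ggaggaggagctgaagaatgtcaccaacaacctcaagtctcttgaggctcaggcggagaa
Tpm3.13 A_51_P462153 at chr3:89893733-89893942, plus strand: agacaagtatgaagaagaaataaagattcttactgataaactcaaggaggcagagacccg

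Of the 24 member probes, 5 cover more than 60 bases of the genome and so cross an intron, those of *Tnni1*, *Tnnc1*, *Tnnt3* and *Tpm3* among the sequences above and 1 of *Tnnt2*. The *Tnnt3* pair overlaps on chromosome 7, so its 2 values are not independent readings. The other probes are given by position, here or where their values are described. *Tnni2* was read at chr7:149630241-149630300, *Tnnc2* at chr2:164602661-164602720, and the third *Tnnt3* probe at chr7:149701806-149701865. The second *Tnnt1* probe lies at chr7:4456265-4456324 and the second *Tnni1* probe at chr1:137707474-137707533. Exon and UTR boundaries on mm9 were not used here.

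None of the 22 tested probes was called, where a call needed a Benjamini-Hochberg adjusted p (q) under 0.1 over all probes in limma and a fold change above 1.5. Over all 33819 probes tested, 1.61% were called. No member probe had a q under 0.1 either, against 7.82% of all probes. At an unadjusted p under 0.05 there were 6 member probes, 1 higher and 5 lower in Pg mice, which is 27.3% of the members beside 22.8% of all probes (6.86% higher and 16% lower). The groups did not overlap for 3 member probes, all lower in Pg mice, which is 13.6% beside 15.8% of all probes (11% lower). The members' shares thus lay near the background or below it with this processing, and not with scaling to the 75th percentile, where 10 of 22 members and 20.5% of all probes had an unadjusted p under 0.05. Of the 22 fold changes, 6 were above and 16 below 0, with a median of -0.06 on the log2 scale beside -0.04 for all probes tested. Most members are bright. For the 16 member probes with a mean log2 signal of at least 14 the median was -0.07, with 13 below 0, beside 0.01 for all 1867 such probes, of which 858 were below 0. The median standard error was 0.07 for the members and 0.11 for all probes tested, and the median half-width of the 95% confidence interval (CI) was 0.17 for the members.

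**Figure D1:**
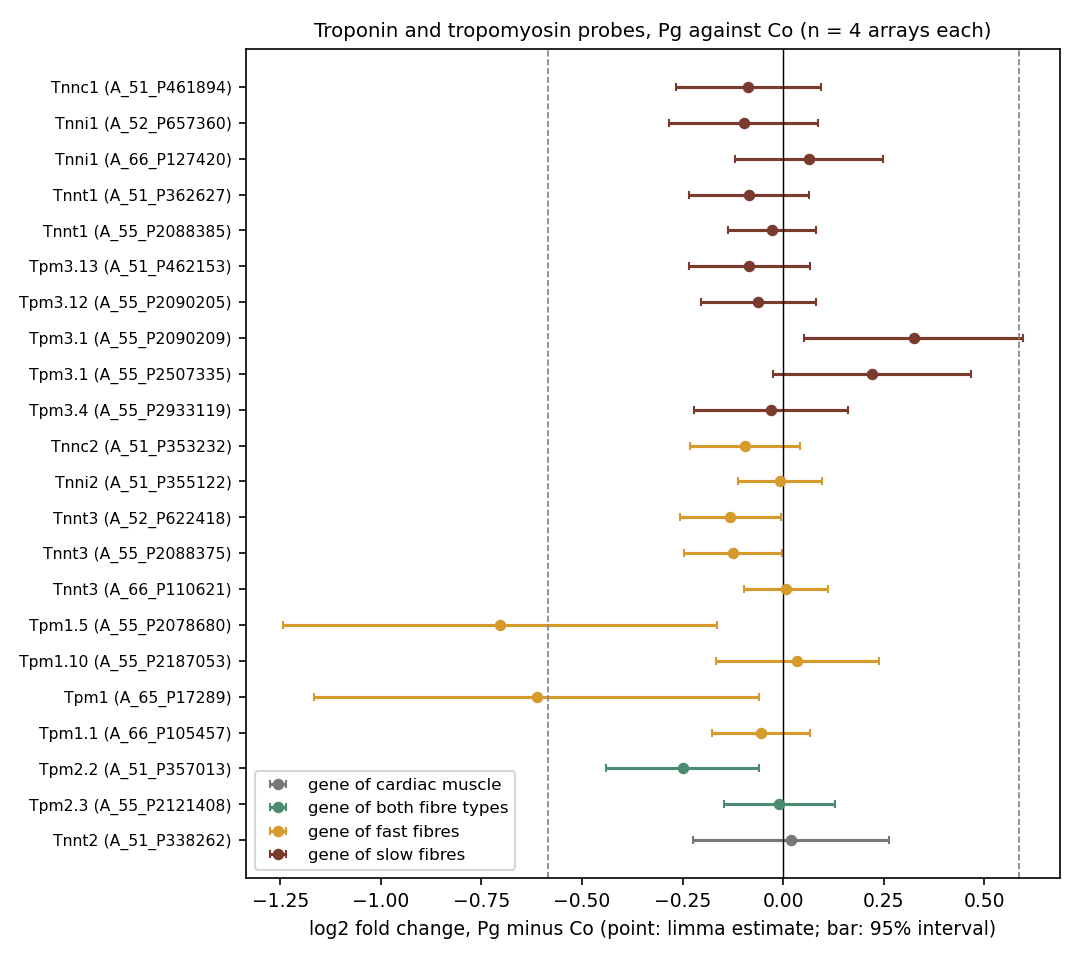
The plot of log2 fold changes (Pg minus Co, 4 arrays each) shows each of the 22 tested probes as a limma estimate with its 95% CI, colored by the fibre type of the gene. Dashed lines mark a 1.5-fold change. The troponin probes lie between -0.13 and 0.06 and the widest intervals belong to a pair of *Tpm1* probes.

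No slow troponin probe passed the test, and the groups overlapped on all 5 of them. *Tnnt1* encodes the troponin T of slow fibres and had 2 probes. On A_55_P2088385 the normalized log2 signals were 18.75, 18.71, 18.71 and 18.68 in Co mice and 18.71, 18.68, 18.68 and 18.68 in Pg mice. The groups overlapped, with a log2 fold change of -0.03 ± 0.05 (SE, n = 4 per group, limma's q = 0.753). On A_51_P362627 the Co values were 18.11, 18.01, 18.12 and 18.03, and the Pg values 17.96, 18.07, 18.04 and 17.86. Here too the groups overlapped, with a log2 fold change of -0.08 (95% CI -0.23 to 0.06, limma's q = 0.473).

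*Tnni1*, the slow inhibitory subunit, was read by a pair of probes whose estimates had opposite signs. A_66_P127420 gave 18.12, 17.95, 18.20 and 18.16 in Co mice and 18.09, 18.31, 18.18 and 18.11 in Pg mice, a log2 fold change of 0.06 (95% CI -0.12 to 0.25, limma's q = 0.668) that turned to -0.05 with scaling to the 75th percentile. A_52_P657360 gave 17.07, 17.05, 17.07 and 17.10 in Co mice and 16.80, 17.16, 16.95 and 16.98 in Pg mice, a log2 fold change of -0.10 (95% CI -0.28 to 0.09, limma's q = 0.506). Replicate 2 was the highest Pg mouse on both probes, and the Pg values of A_52_P657360 were spread far more widely than the Co values (SD 0.15 and 0.02, n = 4 each). *Tnnc1* encodes the calcium-binding subunit of slow and cardiac muscle. Its Co values were 16.61, 16.46, 16.61 and 16.56 and its Pg values 16.31, 16.62, 16.46 and 16.50, again with replicate 1 the lowest and replicate 2 the highest of the Pg mice. The log2 fold change was -0.09 (95% CI -0.27 to 0.09, limma's q = 0.547). Both slow estimates depended on these mice. Without Pg replicate 1 *Tnnc1* was -0.03 and *Tnni1* (A_52_P657360) -0.04, and without Pg replicate 2 they were -0.14 and -0.16 (limma's q = 0.371 and 0.252).

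No fast troponin probe passed the test either, and 2 of the 3 *Tnnt3* probes had lower values in every Pg mouse after quantile normalization of the processed signal. *Tnnt3* encodes the troponin T of fast fibres. A_52_P622418 read 18.16, 18.15, 18.03 and 18.04 in Co mice and 17.95, 17.99, 17.96 and 17.96 in Pg mice. Its overlapping neighbor A_55_P2088375 read 18.24, 18.28, 18.25 and 18.22 in Co mice and 18.11, 18.09, 18.21 and 18.09 in Pg mice. All 4 Pg values were below all 4 Co values on both probes. The log2 fold changes were -0.13 (95% CI -0.26 to -0.01) and -0.13 (95% CI -0.25 to -0.00344), and neither passed the adjustment (limma's unadjusted p = 0.0421 and 0.0452, q = 0.202 and 0.209). The size depended on the processing. A_52_P622418 was -0.08 with normexp, -0.25 with scaling to the 75th percentile and -0.08 in the authors' log2 values, where its groups overlapped (18.05 in Co replicate 3, 18.16 to 18.17 in Pg replicates 1 to 3). A_55_P2088375 was -0.15 with normexp (limma's q = 0.107), -0.26 with scaling to the 75th percentile and -0.10 in the authors' values. The log2 of the summed skeletal muscle markers was lower in every Pg mouse, by a narrow margin (20.761 in the lowest Co mouse and 20.755 in the highest Pg mouse). The same sum overlapped between the groups for other thin filament genes (19.13 to 19.15 in Co mice and 19.05 to 19.17 in Pg mice). It also overlapped for the slow fibre partners (20.38 to 20.46 and 20.40 to 20.47) and the fast fibre partners (20.13 to 20.45 and 20.06 to 20.40) listed below. Of the 10 skeletal muscle markers 3 had an unadjusted p under 0.05 in limma, all lower in Pg mice, beside 22.8% of all probes (16% lower). None had a q under 0.1, beside 7.82% of all probes. *Tnnc2*, the calcium-binding subunit of fast fibres, had Co values of 18.34, 18.49, 18.41 and 18.34 and Pg values of 18.38, 18.26, 18.29 and 18.28. Replicate 1 of the Pg mice lay within the Co range, and the log2 fold change was -0.09 (95% CI -0.23 to 0.04, limma's q = 0.381). It was -0.03 with normexp and -0.23 with scaling to the 75th percentile (limma's q = 0.198), where the groups did not overlap (18.28 to 18.69 in Co mice and 18.19 to 18.26 in Pg mice).

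The brightest troponin probes could not be read this way, because quantile normalization fixes the value that goes with each place in the order of brightness. The third *Tnnt3* probe (A_66_P110621) and the *Tnni2* probe (A_51_P355122), which reads the fast inhibitory subunit, held places 2 and 3 on every one of the 8 arrays, so their normalized values could only be 18.84 or 18.81. *Tnnt3* read 18.81 in Co replicate 1 and 18.84 on the other 7 arrays, and *Tnni2* read the reverse. Their log2 fold changes of 0.01 and -0.01 are mirror images of that 1 exchange. Before normalization, the *Tnnt3* signals were 486684, 495481, 478025 and 465790 in Co mice and 468386, 453344, 445460 and 463903 in Pg mice. The *Tnni2* signals were 491664, 489571, 472397 and 448911 in Co mice and 462263, 452074, 441372 and 424014 in Pg mice. As scanned, the group means differed by -0.07 for *Tnnt3* and -0.10 for *Tnni2* on the log2 scale, with all 4 Pg values below 3 of the 4 Co values for both probes and above the lowest Co value in at least 1 Pg mouse. *Tnnt1* (A_55_P2088385) stood at places 4 to 6. No spot on any array was marked saturated. In all, 8 member probes were among the 100 brightest on every array. A place in this order reflects the probe as well as the transcript and is not a comparison of levels between genes.

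**Figure D2:**
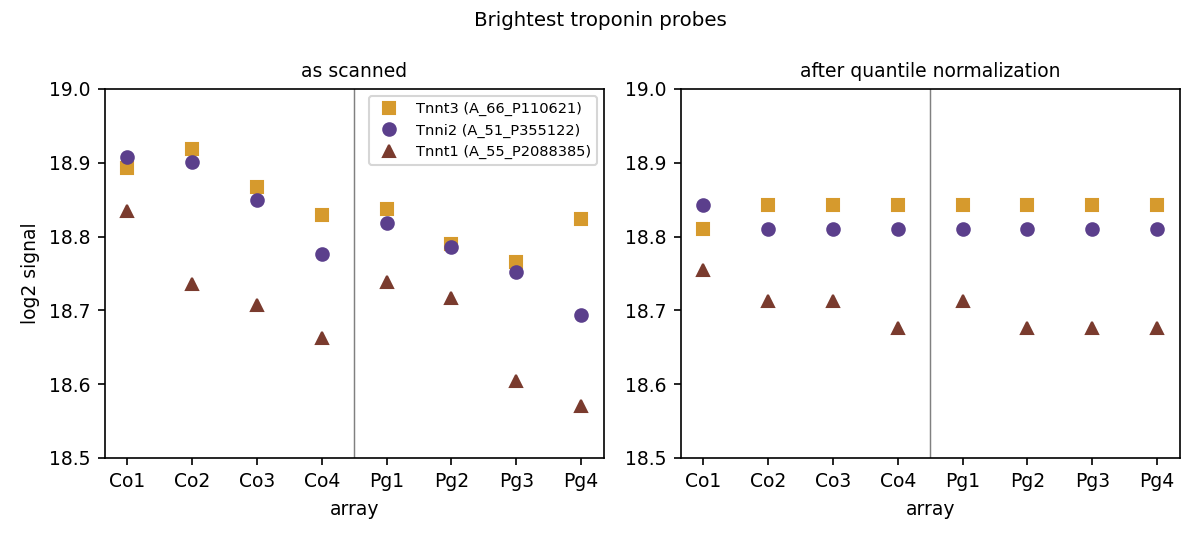
The plot of the 3 brightest troponin probes by array shows the log2 signal as scanned (left) and after quantile normalization (right), on the same axis. The normalized *Tnnt3* and *Tnni2* values take only the levels 18.81 and 18.84, while the scanned values vary from array to array.

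The balance of slow and fast troponins was described by the mean of *Tnnt1*, *Tnni1* and *Tnnc1* minus the mean of *Tnnt3*, *Tnni2* and *Tnnc2* on each array, each gene by its brightest probe, with the Co mean set to 0. The Co mice had differences of 0.05, -0.12, 0.04 and 0.02 on the log2 scale, and the Pg mice of -0.09, 0.12, 0.01 and 0.01. The ranges overlapped, and the Pg mean was 0.01 above the Co mean beside a within-group SD of 0.08 in both groups. Since the normalized *Tnnt3* and *Tnni2* values always add up to the same sum, the fast mean followed *Tnnc2* alone. With the values as scanned, which have no such ceiling, the difference between the groups was 0.06. It was -0.02 with normexp and -0.01 with the median signal. In the authors' values, which lack the brightest *Tnnt3* and *Tnni1* probes and were read by others, it was -0.01.

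**Figure D3:**
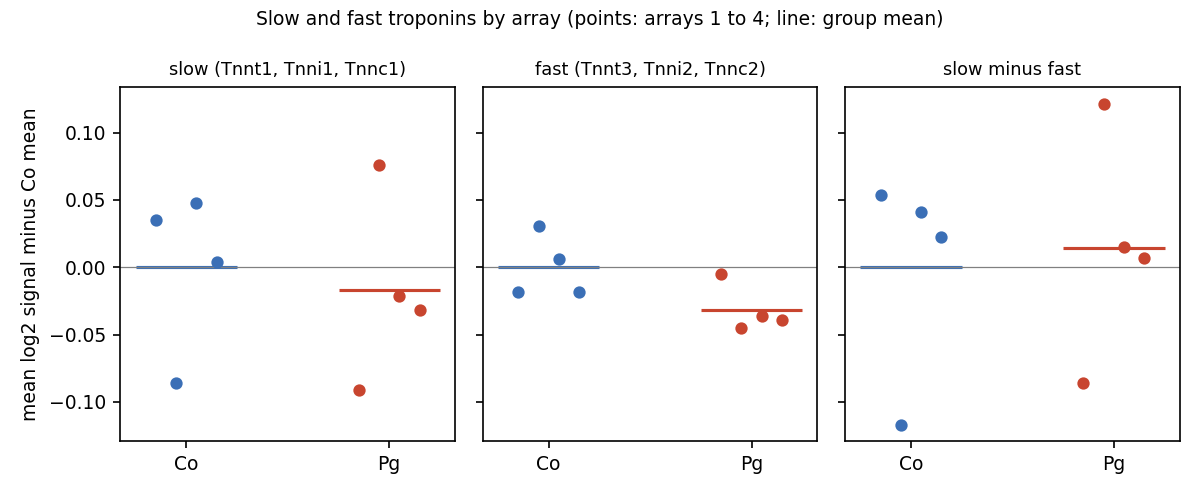
The plot of slow and fast troponins by array shows the mean log2 signal of 3 slow genes, of 3 fast genes and of slow minus fast, each relative to the Co mean. Points are arrays 1 to 4 from left to right and lines are group means. In each panel the Co and Pg points overlap.

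*Tnnt2*, the troponin T of heart and of developing skeletal muscle, was read at 10.17, 10.12, 10.28 and 10.13 in Co mice and 10.18, 9.92, 10.28 and 10.41 in Pg mice on A_51_P338262 (chr1:137747976-137748288). The Pg mice lay on both sides of the Co range, and the log2 fold change was 0.02 (95% CI -0.22 to 0.26, limma's q = 0.927). The other *Tnnt2* probes, A_55_P2715371 (chr1:137736237-137736296) and A_55_P2715376 (chr1:137741190-137741249), were well above background on 3 arrays and on none, and were not tested. Of 6 cardiac markers 3 were tested, and none was called. The largest difference was in *Tnni3*, at -0.30 (limma's q = 0.346), and the next, of opposite sign, in *Myh6*, a cardiac myosin heavy chain, at 0.26 (limma's q = 0.0897, below the fold limit). *Nppb* was above background on no array. None of 4 genes of embryonic or regenerating muscle had a q under 0.1. The largest differences there were in *Myh3*, the embryonic myosin heavy chain, at 0.88 (limma's q = 0.297), and *Myod1*, a myogenic transcription factor, at -0.40 (limma's q = 0.530). *Myh3* ranged from 11.93 to 12.50 in Co mice and from 12.34 to 14.54 in Pg mice (SD 0.25 and 1.02), so its groups overlapped.

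No tropomyosin probe passed the test, and the estimates differed between probes of a gene. *Tpm1* gives the α-tropomyosin of fast fibres and heart as well as cytoskeletal forms, and 2 of its 4 probes varied little between mice while the other 2 varied widely. A_66_P105457, designed on Tpm1.1, the striated muscle form, read 17.37, 17.49, 17.47 and 17.43 in Co mice and 17.40, 17.36, 17.36 and 17.43 in Pg mice, a log2 fold change of -0.06 (95% CI -0.18 to 0.07, limma's q = 0.567). A_55_P2187053, designed on Tpm1.10 (chr9:66872131-66872190), read 9.91 to 10.14 in Co mice and 9.98 to 10.30 in Pg mice, a log2 fold change of 0.03 (limma's q = 0.840). These probes showed overlapping groups and small spreads.

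The other 2 *Tpm1* probes had the largest estimates of all members. A_55_P2078680, designed on Tpm1.5, read 6.37, 7.10, 6.81 and 6.08 in Co mice and 5.99, 5.51, 5.96 and 6.09 in Pg mice. A_65_P17289, designed on a cDNA clone with no isoform name (chr9:66877029-66877088), read 9.26, 10.30, 10.15 and 9.74 in Co mice and 9.02, 9.03, 9.45 and 9.51 in Pg mice. On both probes Co replicates 2 and 3 were the highest of all 8 mice, and another Co mouse lay within the Pg range. The log2 fold changes were -0.70 (95% CI -1.24 to -0.16, limma's unadjusted p = 0.0170, q = 0.135) and -0.61 (95% CI -1.16 to -0.06, limma's unadjusted p = 0.0340, q = 0.182). They were -0.53 and -0.47 without Co replicate 2. The Tpm1.5 probe was -0.42 with normexp (limma's q = 0.0973) and -0.46 with the median signal (limma's q = 0.0948), both below the fold limit. Taken relative to the Tpm1.1 probe on each array, the Tpm1.5 probe differed by -0.65 between the group means, with overlapping groups. With the median spot signal and no background subtraction A_65_P17289 passed the call (log2 fold change -0.66, limma's q = 0.0923), and over all alternatives, with each mouse left out from the quantile-normalized processed signal among them, its q was 0.0923 to 0.335.

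*Tpm2*, the β-tropomyosin of slow and fast fibres, had 1 probe with groups that did not overlap. A_51_P357013, designed on Tpm2.2, the muscle form, and placed at chr4:43527892-43527951 on the minus strand, read 16.90, 17.06, 17.11 and 17.07 in Co mice and 16.60, 16.86, 16.87 and 16.81 in Pg mice. Replicate 1 was the lowest mouse in each group. The log2 fold change was -0.25 (95% CI -0.44 to -0.06), with an unadjusted p of 0.0167 and a q of 0.134 in limma. This probe holds the 16-base run CTCAGGTCTCCTAACA 2 times, whereas the longest repeat within any other member probe has 7 bases. A_55_P2121408, designed on Tpm2.3, read 17.24, 17.25, 17.23 and 17.18 in Co mice and 17.17, 17.34, 17.20 and 17.15 in Pg mice. Its log2 fold change was -0.01 (95% CI -0.15 to 0.13, limma's q = 0.935). The difference between the *Tpm2* probes on each array, with the Co mean set to 0, was -0.15 to 0.08 in Co mice and -0.38 to -0.14 in Pg mice, and these ranges overlapped.

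*Tpm3*, which gives the α-tropomyosin of slow fibres and a cytoskeletal form made in most cells, had 5 tested probes, none of which passed the test. Each is named by the isoform it was designed on, and whether it reads that isoform alone was not tested. A_55_P2090205, designed on the muscle form Tpm3.12, read 16.98, 16.88, 16.97 and 17.00 in Co mice and 16.89, 16.97, 16.93 and 16.79 in Pg mice. A_51_P462153, designed on Tpm3.13, read 15.39 to 15.54 in Co mice and 15.28 to 15.45 in Pg mice. The log2 fold changes were -0.06 and -0.08, with overlapping groups (limma's q = 0.588 and 0.479). A_55_P2090209, designed on the cytoskeletal form Tpm3.1 and placed at chr3:89904428-89904487, read 14.36, 14.15, 14.32 and 14.64 in Co mice and 14.68, 14.89, 14.56 and 14.64 in Pg mice. The highest Co mouse, replicate 4, lay within the Pg range. Its log2 fold change was 0.32 (95% CI 0.05 to 0.60, limma's unadjusted p = 0.0250, q = 0.159). The second Tpm3.1 probe, A_55_P2507335 (chr3:89904762-89904821), read 11.89 to 12.26 in Co mice and 12.06 to 12.39 in Pg mice, a log2 fold change of 0.22 (95% CI -0.03 to 0.47, limma's q = 0.264). With the Co mean set to 0, A_55_P2090209 minus the Tpm3.12 probe was -0.14 to 0.23 in Co mice and 0.21 to 0.51 in Pg mice, and only Co replicate 4 reached into the Pg range. The Tpm3.4 probe, A_55_P2933119 (chr3:89883597-89883656), read 6.19 to 6.42 in Co mice and 6.21 to 6.48 in Pg mice (log2 fold change -0.03, limma's q = 0.854).

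**Figure D4:**
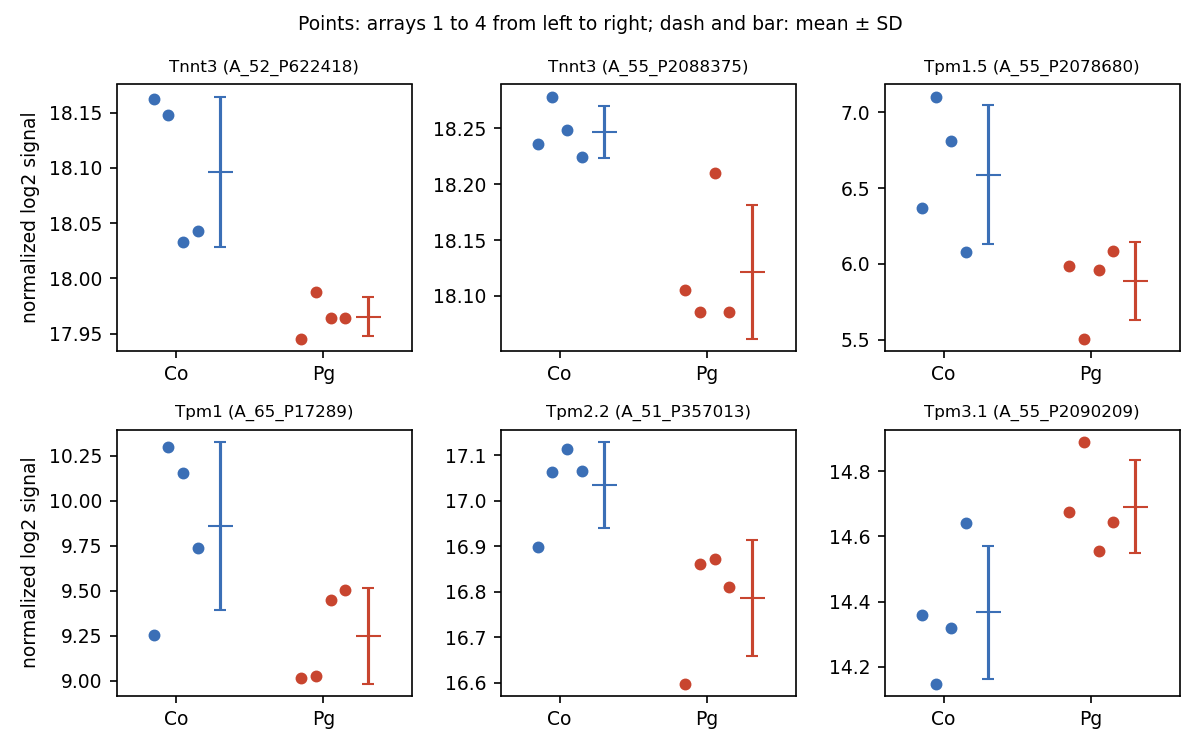
The plot of normalized log2 signals by mouse shows the 6 member probes with an unadjusted p under 0.05 in limma, none of which had a q under 0.1. Points are arrays 1 to 4 from left to right, the dash and bar are the mean ± SD (n = 4), and each panel has its own axis. Co and Pg points are apart for a pair of *Tnnt3* probes and for Tpm2.2, and they overlap in the other 3 panels.

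Partners of the troponins in the sarcomere were taken from lists by fibre type, each gene by its brightest tested probe. None of 11 other thin filament genes was called or had a q under 0.1, and their median log2 fold change was -0.08. The largest differences were in *Lmod2*, a leiomodin that lengthens thin filaments (-0.38, limma's q = 0.1001, just above the limit), and *Tnni3*, the cardiac inhibitory subunit (-0.30, limma's q = 0.346). Of 8 slow fibre partners none was called or had a q under 0.1, with a median of -0.02. The largest were *Casq2*, a calcium buffer of the sarcoplasmic reticulum, at 0.20, and *Myh7*, the slow myosin heavy chain, at 0.08, and neither passed the test. Of 11 fast fibre partners none was called and 1 had a q under 0.1, with a median of -0.08. That gene was *Atp2a1*, the calcium pump of fast fibres, which was lower in Pg mice without overlap (log2 fold change -0.44, limma's q = 0.0411) but below the fold limit.

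Not all fast fibre genes varied as little between mice as *Tnnc2*. *Myh4*, the myosin heavy chain of the fastest fibres, had an SD of 1.61 in Co mice and 2.70 in Pg mice on the log2 scale (n = 4 each) and a log2 fold change of -0.77 (limma's q = 0.772). By contrast, the SD of *Tnnc2* was 0.07 in Co mice and 0.05 in Pg mice. Among the skeletal muscle markers none was called or had a q under 0.1, and the median was -0.03. The largest were *Ryr1*, the calcium release channel, at -0.19 and *Mb*, myoglobin, at -0.15, neither of which passed the test.

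Genes whose values varied over the 8 arrays most like the mean of the slow troponins were *Gm11665*, *Polr2e*, ENSMUST00000190438, a lincRNA probe on chromosome 5 and *Kif2a*, with Pearson's r from 0.89 to 0.92. Those most like the mean of the fast troponins, which after normalization followed the *Tnnc2* probe alone, were *C1qtnf7*, *Zfp384*, *Moap1*, *Cenpq* and *Abce1*, with r from 0.95 to 0.97. No sarcomere gene was among these 10, and none of them was called. The correlations are over 8 arrays of 1 slide, were picked as the highest of all genes, and rest on slow and fast means that vary by under 0.2 on the log2 scale.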

How the data were processed

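RNA of 4 Co and 4 Pg mice was hybridized to 8 Agilent one-color arrays. The authors deposited the Feature Extraction 11.0.1.1 output, which holds the Cy3 intensity of each spot, background-subtracted and detrended in the processed signal, with probe sequences and mm9 positions. The authors also deposited a table of quantile-normalized log2 values, used as an alternative, and of their own fold changes, p-values and enrichment text, not used. Processed signals of a probe's spots (control and outlier spots left out) were averaged, quantile-normalized between arrays and, with values under 1 set to 1, log2-transformed in R 4.3.3 with the data.table package (1.17.8). A probe was kept if 4 or more arrays had it well above background. Pg and Co were compared with limma 3.58.1 (lmFit and eBayes, two-sided, Benjamini-Hochberg over all 33819 probes kept). The fit was tested on simulated data. The methods' limits for a call were used, a q under 0.1 with a fold change over 1.5. Each mouse was a replicate. The number of arrays limits the precision.

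Members were named by every probe. The 5 genes most like the slow and the fast troponins were those with the highest Pearson's r, and listed genes were named when called, or else the 2 with the largest fold change. The members and lists were chosen with earlier results of these data known. Alternatives were other background corrections (normexp with an offset of 50, the median signal), scaling to the 75th percentile, no normalization, the authors' log2 values, other filters, outlier spots kept, a replicate block and leaving out each array.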

Additional observations from a re-analysis of the deposited data

Results flagged for a closer look

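Of 44 groups of 4 mice over the tested member probes, 4 held a mouse far from the other 3. Chance gives about 1 in 20 for values free to vary, a rate that does not apply where places fix the values. *Tnnt1* (A_55_P2088385) was 18.71 in Pg replicate 1 and 18.68 in the other Pg mice. *Tnnt3* (A_55_P2088375) was 18.21 in Pg replicate 3 and 18.09 to 18.11 in the others. *Tnnt3* (A_66_P110621) was 18.81 in Co replicate 1 and 18.84 in the others, and *Tnni2* (A_51_P355122) was 18.84 in Co replicate 1 and 18.81 in the others. The last 2 probes exchange neighboring places in the order of brightness, whose normalized values are fixed, so each such flag marks 1 exchange of places. Their Pg values were all equal and could not be flagged. The *Tnnt1* flag is likewise a step between places, 5 in Pg replicate 1 and 6 in the other Pg mice.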

How the results depend on the processing

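The count of called member probes stayed 0 under every alternative except the median signal without background subtraction, where it was 1 (*Tpm1*, A_65_P17289). The count with q under 0.1 was 1 with normexp (*Tpm1*, A_55_P2078680), 2 with the median signal and 0 elsewhere. With each mouse left out in turn both counts were 0, and 2 to 6 of 22 probes had an unadjusted p under 0.05, beside 18.9% to 23.2% of all probes. Scaled to the 75th percentile, 10 did, beside 20.5% of all probes, 18 of 22 fold changes were below 0, and the median was -0.15, beside -0.02 for all probes and -0.04 for the 1867 probes with a mean log2 signal of at least 14. Some estimates near 0 changed sign. *Tnnt3* (A_66_P110621) became -0.0136 with normexp, -0.0502 with the median signal, -0.12 at the 75th percentile and -0.0728 without normalization. Tpm2.3 (A_55_P2121408) became 0.0514 with normexp, 0.0580 with the median signal and 0.0847 in the authors' values, where Tpm1.1 (A_66_P105457) became 0.00604. At the 75th percentile *Tnnt2* became -0.0127, *Tnni1* (A_66_P127420) -0.0504 and Tpm3.4 0.0806, and without normalization the latter pair became -0.000304 and 0.13. Leaving out 1 mouse moved *Tnnt2* between -0.0513 and 0.11, Tpm1.10 between -0.0323 and 0.0733, Tpm2.3 between -0.0511 and 0.0113, and Tpm3.4 between -0.0855 and 0.00476. The slow minus fast difference ranged from -0.02 to 0.05 with a mouse left out. Mice with the same number, whose arrays shared a column of the slide, varied together little (r from -0.07 to 0.18), so the numbers were not taken as pairs. For Co replicates 1 and 4 this r exceeded the highest r with a Pg mouse of another number (0.06 beside 0.04 and 0.18 beside 0.01). For Co replicates 2 and 3 it was lower (-0.03 beside 0.13 and -0.07 beside 0.06). With the replicate block no member probe was called, 2 had an unadjusted p under 0.05 beside 21.9% of all probes, and the count called over all probes went from 546 to 0. The authors' table holds 19 of the 22 probes.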
